A study of Mus musculus with 12 samples.

Results

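The genes described here encode the chains of the 3 collagens that build the cartilage fibril. They are Col2a1 for collagen II, Col9a1, Col9a2 and Col9a3 for collagen IX, and Col11a1 and Col11a2 for collagen XI. Members were taken by an exact match of these 6 symbols, out of 34509 symbols of the array, and every probe of each was followed. The match gave 15 probes, with 3 for Col2a1, 3 for Col9a1, 1 for Col9a2, 2 for Col9a3, 5 for Col11a1 and 1 for Col11a2. Of these, 11 passed a filter on low signal and 4 did not. RefSeq (GRCm38.p6) places Col2a1 at chr15:97975602-98004724, Col9a1 at chr1:24177589-24252738, Col9a2 at chr4:121039566-121055325, Col9a3 at chr2:180598102-180622192, Col11a1 at chr3:114030479-114220756 and Col11a2 at chr17:34038919-34066684. Probe sequences were not used here, so the exon that a probe reads is not given.

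Collagen II is a homotrimer of the Col2a1 chain and makes up most of the fibril. Collagen XI lies in the fibril and takes part in setting its diameter, with chains from Col11a1 and Col11a2 joined by an overmodified product of Col2a1. Collagen IX is bound covalently to the fibril surface and has 1 chain from each of its genes. All of them are made by chondrocytes, with Sox9 acting as the master transcription factor of the programme. In cultured cartilage, retinoic acid is known as an agent that turns down the chondrocyte matrix programme, and IL-1α as an inflammatory cytokine that lowers matrix synthesis.

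The explants were femoral head cartilage of 21-day-old TS-4/5∆cat mice. These mice carry in-frame deletions of the catalytic domains of both ADAMTS-4 and ADAMTS-5 from the germ line, so every group lacked both activities, and no wildtype array was used here. Explants (hips at 4 per well by the labels) were left untreated, treated with 10 ng/ml IL-1α, or treated with 10 µM retinoic acid, for 3 days. Medium with serum before treatment is stated in the labels and serum-free medium in the methods. Each treatment had 4 Illumina bead arrays, 2 in batch 1 from the line named Donut and 2 in batch 2 from the line named Gertrude, so that line and batch cannot be told apart. The methods give fewer mice for each treatment than there are arrays, and nothing in the sources used here ties an array to an individual mouse. Some arrays of a group may therefore share an animal, and n counts arrays throughout. Treatment p-values of the linear model rest on the spread left between these samples after batch and replicate number are fitted. Permutation p-values take no account of batch. The spread between samples may in part be technical.

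The 12 arrays detected between 13786 and 19485 of 46632 probes each. Arrays of the same treatment and batch correlated at 0.983 to 0.995, and those of 1 treatment across batches at 0.868 to 0.902. Of 9 chondrocyte markers with a probe, 6 were detected on all untreated arrays, including Acan, Hapln1, Comp, Matn1, Chad and Sox9. Matn3 and 1700027A23Rik were not detected on any array. The summed chondrocyte marker level, on the normalised linear scale, was 56551.9 to 67418.8 in untreated, 33088.7 to 45121.7 in IL-1α and 11247.6 to 13632.1 in retinoic acid. The sums for macrophage markers (6 of 6 with a probe) were 5747.86 to 6967.28, 5030.04 to 8645.49 and 7725.71 to 8709.55 in the same order. Those for endothelium were 1900.73 to 2350.37, 922.477 to 1211.66 and 2081.56 to 2458.19, and those for fibroblast and synovium were 17085 to 19508.1, 15121.9 to 16688.7 and 11664.5 to 15485.7. Neutrophil and marrow markers summed to 8866.38 to 13894.8, 15198 to 15997.6 and 4405.81 to 13993.2. With retinoic acid that sum moved in opposite directions in the batches. In batch 1 the sum was 11760 to 13894.8 untreated and 4405.81 to 4425.69 with retinoic acid, and in batch 2 it was 8866.38 to 10500.4 and 13154.1 to 13993.2. Only S100a8 and S100a9 rose in batch 2, by log2 differences of 0.74 and 0.54. Mpo (-0.50), Ela2 (-0.07), Ngp (-0.53) and Ltf (-0.07) did not rise there. Adipocyte markers, 2 of 4 undetected in every group, stood at 982.281 to 1475.75 untreated and lower, without overlap, at 257.224 to 524.981 with IL-1α and 311.117 to 372.455 with retinoic acid. Osteoblast markers were at 3009.72 to 6442.28, 1760.02 to 3773.53 and 1978 to 3955.31, and those of hypertrophic chondrocytes at 30075.9 to 39309.2, 22199.2 to 31105.1 and 23662.6 to 32299.1. Within each batch both of these sums were lower than untreated under either treatment. Erythroid sums overlapped between the groups, from 18911.8 to 33921.2 in all, and no skeletal muscle marker was detected on all arrays of any group. Their part in the collagen differences below was not tested. In whole cartilage, fewer chondrocytes and less collagen RNA per chondrocyte cannot be told apart.

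All levels below are normalised log2 intensities, in which a difference of 1 is a doubling. Levels on 1 probe are set against the same probe only. When a level is given for each array, batch 1 replicate 1 comes first, then batch 1 replicate 2, batch 2 replicate 1 and batch 2 replicate 2. A probe was called when the adjusted p of limma, with Benjamini-Hochberg adjustment over 18200 kept probes, was under 0.05, and a gene by its brightest kept probe.

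Retinoic acid lowered 5 of the 6 genes against untreated, and Col9a3 was the one not called. Across all genes tested, 18.1% were called lower in this comparison. By probe, 10 of the 11 kept were called lower, against 17.1% of all kept probes, and all 11 had a negative difference. The median difference of the member genes was -2.0 on the log2 scale, beside 0.01 for all genes. On 9 of the 11 probes every retinoic acid array lay below every untreated array, against 8.41% of all kept probes. For each of these 9, an exact two-sided permutation test of the 8 arrays gave p = 0.0286, the smallest that 4 against 4 allow.

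**Figure D1:**
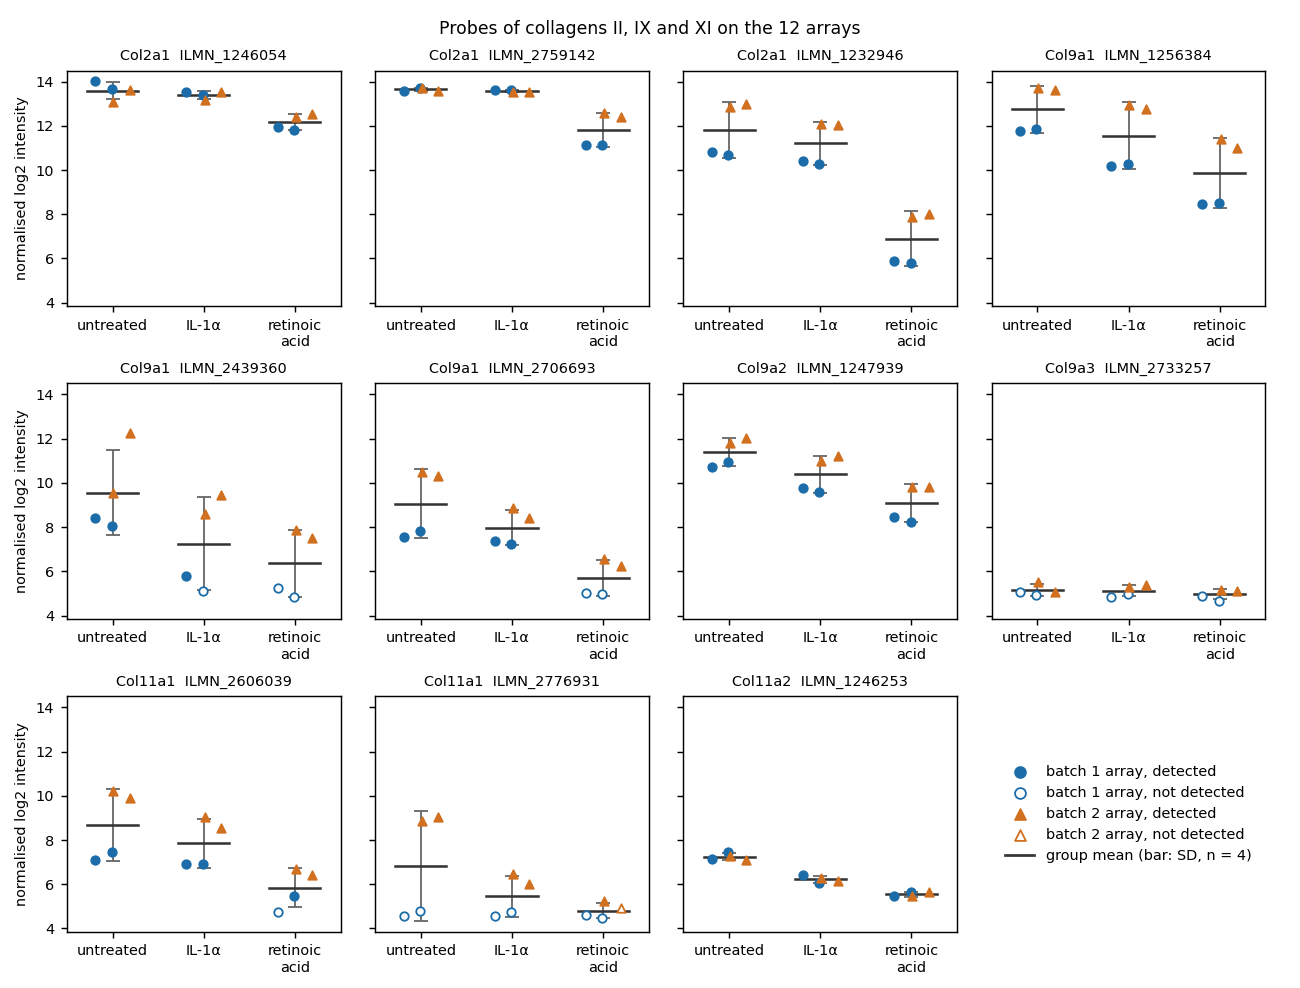
Normalised log2 intensity of the 11 kept probes on the 12 arrays. Circles are batch 1 and triangles batch 2, open symbols were not detected, and bars are the group mean ± SD (n = 4). Retinoic acid lay lowest on every probe, by group mean, and most probes of Col9a1, Col9a2 and Col11a1 sat higher in batch 2.

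Col2a1, the chain of collagen II, differed most between its probes in the size of the change, among the 3 genes with several kept probes. On ILMN_1232946 the untreated arrays read 10.80, 10.67, 12.84 and 13.01. The retinoic acid arrays read 5.89, 5.77, 7.90 and 8.03. The groups did not overlap, and the lowest untreated array stood above the highest retinoic acid array of either batch. The fitted difference was -4.93 ± 0.13 (SE), which is 30.6-fold, at an adjusted p of 6.53e-11 by limma. It was -4.90 in batch 1 and -4.96 in batch 2. The batch 1 retinoic acid arrays, at 5.89 and 5.77, stood little above where detection began on them, at 5.36 and 5.34. Equal falls in the batches are therefore not shown.

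The other Col2a1 probes gave smaller differences. On ILMN_1246054, the brightest and so the one that represents the gene, the untreated arrays read 14.01, 13.66, 13.08 and 13.62, and the retinoic acid arrays 11.95, 11.82, 12.41 and 12.52. On ILMN_2759142 they read 13.57, 13.71, 13.71 and 13.59 against 11.13, 11.13, 12.57 and 12.41. On both probes the untreated and retinoic acid arrays did not overlap, and the batch 2 retinoic acid arrays stood higher than those of batch 1. The fitted differences were -1.42 ± 0.19 (SE, adjusted p = 6.83e-05 by limma) and -1.84 ± 0.25 (SE, adjusted p = 7.61e-05 by limma). In batch 1 they were -1.96 and -2.51, and in batch 2 they were -0.89 and -1.16.

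On many untreated and IL-1α arrays these bright probes were among the 100 most intense. ILMN_2759142 ranked between 49 and 81 on all 8 untreated and IL-1α arrays, at 48.7% to 72.9% of the highest raw intensity of its array. ILMN_1246054 ranked within the first 100 on 5 arrays, 3 untreated and 2 treated with IL-1α, and reached rank 11 on 1 untreated array. ILMN_1232946 never ranked within the first 100, and its best rank was 180. Under retinoic acid neither bright probe was within the first 100, with ranks from 275 to 837. Raw intensities of the bright probes on untreated arrays ran from 7714.4 to 17634.5 in arrays whose brightest probe read 15834.2 to 24187.6. Within arrays, retinoic acid moved ILMN_1232946 by 3.51 more than ILMN_1246054 and by 3.10 more than ILMN_2759142. The exact permutation p was 0.0286 for each, and 0.12 after adjustment over the 21 comparisons of probes of 1 gene, which were chosen after the values were seen. Whether signal near the top compresses these differences was not tested.

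**Figure D2:**
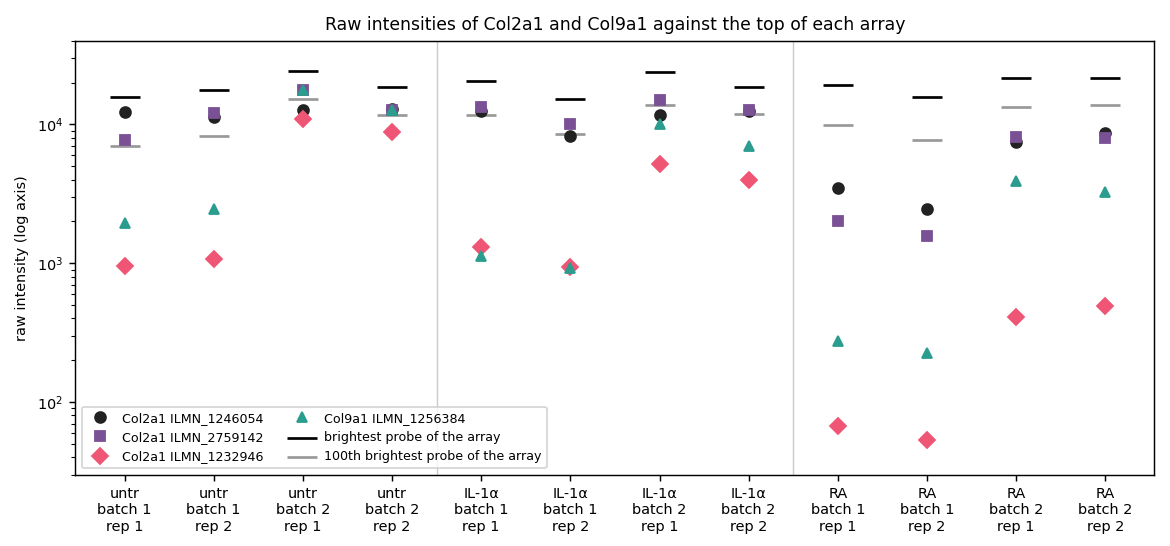
Raw intensity, on a log axis, of the 3 Col2a1 probes and the brightest Col9a1 probe on each of the 12 arrays, with dashes for the most intense and the 100th most intense probe of the array. Both bright Col2a1 probes lie near the 100th probe on untreated and IL-1α arrays and fall below it under retinoic acid, while ILMN_1232946 lies below it on all 12.

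Col9a1, a chain of collagen IX, fell on all of its probes. On ILMN_1256384 the untreated arrays read 11.78, 11.84, 13.71 and 13.61, and the retinoic acid arrays 8.46, 8.52, 11.40 and 11.02. The difference of the groups was -2.89 ± 0.17 (SE), or 7.40-fold, at an adjusted p of 4.6e-08 by limma. Without a block or batch term in the model the adjusted p was 0.057 on this probe and 0.113 on ILMN_2439360. The difference on ILMN_1256384 was -3.32 in batch 1 and -2.45 in batch 2. In batch 2 the untreated arrays ranked within the first 100 of their arrays on this probe, at up to 72.7% of the highest raw intensity. ILMN_2706693 read 7.57, 7.84, 10.51 and 10.32 untreated and 5.01, 4.97, 6.58 and 6.24 with retinoic acid, where neither batch 1 array detected it. The batch 1 fall on that probe was therefore at least 5.12-fold, and the pooled difference was -3.36 ± 0.24 (SE). ILMN_2439360 read 8.39, 8.06, 9.54 and 12.26 untreated and 5.23, 4.86, 7.85 and 7.49 with retinoic acid, a difference of -3.21 ± 0.36 (SE). Its untreated arrays of batch 2 stood apart from each other by more than the pair of any other member probe, treatment and batch, and its batch 1 fall was at least 7.34-fold because neither retinoic acid array detected it.

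Col9a2, the next chain of collagen IX, has 1 probe, ILMN_1247939, detected on all 12 arrays. It read 10.73, 10.96, 11.80 and 12.05 untreated and 8.44, 8.24, 9.81 and 9.82 with retinoic acid. The groups were apart by -2.31 ± 0.13 (SE), or 4.95-fold, at an adjusted p of 3.33e-08 by limma. The batches gave -2.50 and -2.11. This probe was never within the first 100 of an array.

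Col9a3, which completes the collagen IX trimer, was close to the limit of detection. Its probe ILMN_2733257 was detected on both batch 2 arrays of every group and on no array of batch 1. It read 5.05, 4.95, 5.53 and 5.09 untreated, 4.86, 4.99, 5.30 and 5.38 with IL-1α, and 4.90, 4.66, 5.17 and 5.13 with retinoic acid. The 3 groups overlapped. The differences from untreated were -0.19 ± 0.12 (SE, adjusted p = 0.263 by limma) with retinoic acid and -0.02 ± 0.12 (SE, adjusted p = 0.917 by limma) with IL-1α. Detection began at 4.86 to 5.48, depending on the array, so a fall as large as those of the other collagen IX chains could not have been measured. The other Col9a3 probe, ILMN_2597314, was not detected on any array.

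Col11a1, a chain of collagen XI, read 7.11, 7.45, 10.23 and 9.90 untreated on ILMN_2606039 and 4.76, 5.48, 6.68 and 6.44 with retinoic acid, where 3 of 4 arrays detected it. The groups did not overlap. The difference was -2.83 ± 0.23 (SE), or 7.13-fold, at an adjusted p of 8e-07 by limma, with -2.16 in batch 1 and -3.51 in batch 2. On ILMN_2776931 no batch 1 array of any group detected the transcript. Its batch 2 arrays read 8.86 and 9.05 untreated and 5.25 and 4.94 with retinoic acid, where 1 of the 2 detected it, a difference of -3.86 in that batch. Pooled over batches, the call on this probe (-2.0 ± 0.55, SE, adjusted p = 0.0125 by limma) was lost when either batch 2 untreated array or either batch 2 retinoic acid array was left out, at adjusted p of 0.0537 to 0.0652, with no filter on low signal, at 0.125, with trend and robust moderation, at 0.084, and without a block or batch term, at 0.26. Of the 3 other Col11a1 probes, ILMN_1217703 and ILMN_1247473 were not detected on any array and ILMN_1232987 was detected on 2 untreated arrays alone.

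Col11a2, the other chain of collagen XI, had tight groups in all 3 treatments. ILMN_1246253 was detected on all 12 arrays and read 7.13, 7.44, 7.27 and 7.10 untreated, 6.41, 6.04, 6.26 and 6.16 with IL-1α, and 5.45, 5.64, 5.46 and 5.65 with retinoic acid. None of the 3 groups overlapped another. Retinoic acid differed from untreated by -1.69 ± 0.13 (SE), or 3.22-fold, at an adjusted p of 5.02e-07 by limma, with -1.74 in batch 1 and -1.63 in batch 2. Detection began at 5.36 and 5.34 on the batch 1 retinoic acid arrays, which read 5.45 and 5.64. Whether that limit cut the fall short was not tested. A probe spelled col11a2 in lower case, ILMN_1222218, was outside the exact match and was detected on 1 IL-1α array alone.

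IL-1α lowered 4 of the 6 genes against untreated. Among all genes, 30.2% were called in either direction, and 2150 of 14317 were called lower. Col9a1, Col9a2, Col11a1 and Col11a2 were called, and Col2a1 on its brightest probe and Col9a3 were not. By probe, 7 of 11 were called lower, against 14.1% of kept probes, and all 11 had a negative difference. The median of the member genes was -0.90, beside 0.01 for all genes. Only Col11a2 had IL-1α arrays that all lay below the untreated arrays, 1 probe of 11 against 6.55% of kept probes. Without a block or batch term in the model, Col11a2 was the 1 gene called.

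Of the collagen IX chains, Col9a1 and Col9a2 were lower in both batches. Col9a1 read 10.18, 10.28, 12.94 and 12.78 with IL-1α on ILMN_1256384, and within each batch both of these arrays lay below both untreated arrays. Over both batches the groups overlapped (exact two-sided permutation p = 0.286). The difference was -1.19 ± 0.17 (SE), or 2.29-fold, at an adjusted p of 0.000225 by limma, with -1.58 in batch 1 and -0.80 in batch 2. The other Col9a1 probes gave -2.31 ± 0.36 (SE) on ILMN_2439360 and -1.09 ± 0.24 (SE) on ILMN_2706693, whose call was lost with no filter, without normalization and in batch 1 alone, at adjusted p of 0.0589, 0.107 and 0.065. With IL-1α, ILMN_2439360 was not detected on 1 array of batch 1. In batch 2 it read 8.58 and 9.47, against untreated arrays that stood far apart, at 9.54 and 12.26. Col9a2 read 9.77, 9.59, 10.99 and 11.23, a difference of -0.99 ± 0.13 (SE), or 1.99-fold, at an adjusted p of 0.000119 by limma. In batch 1 that difference was -1.16 and in batch 2 it was -0.82.

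The collagen XI chains fell as well, with different firmness. Col11a2 differed from untreated by -1.02 ± 0.13 (SE), or 2.02-fold, at an adjusted p of 0.000103 by limma, with -1.06 and -0.97 in the batches. Col11a1 read 6.93, 6.90, 9.03 and 8.56 on ILMN_2606039, a difference of -0.82 ± 0.23 (SE, adjusted p = 0.0181 by limma), with -0.36 in batch 1 and -1.28 in batch 2. That call was lost without either batch 2 untreated array, without IL-1α replicate 2 of batch 1 and without IL-1α replicate 2 of batch 2, at adjusted p of 0.0531 to 0.0877. It was also lost under median scaling, at 0.0875, with no filter, at 0.118, without normalization, at 0.185, and in batch 1 alone, at 0.165. On ILMN_2776931 the pooled difference was -1.37 ± 0.55 (SE, adjusted p = 0.08 by limma), and the batch 2 arrays read 6.46 and 6.00 against 8.86 and 9.05 untreated.

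Col2a1 gave no single answer under IL-1α. On ILMN_1232946 it read 10.41, 10.29, 12.06 and 12.05, and within each batch both of these arrays lay below both untreated arrays. Over both batches the groups overlapped (exact two-sided permutation p = 0.486). The difference was -0.63 ± 0.13 (SE), or 1.54-fold, at an adjusted p of 0.00271 by limma, and -0.39 and -0.87 in the batches. Median scaling left it at -0.56 with an adjusted p of 0.103, and no normalization at -0.49 with 0.29. On the bright probes the IL-1α arrays read 13.51, 13.40, 13.15 and 13.53 for ILMN_1246054 and 13.60, 13.63, 13.53 and 13.55 for ILMN_2759142, within or next to the untreated range. Their differences were -0.20 ± 0.19 (SE, adjusted p = 0.468 by limma) and -0.07 ± 0.25 (SE, adjusted p = 0.862 by limma), which does not show that collagen II was unchanged.

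**Figure D3:**
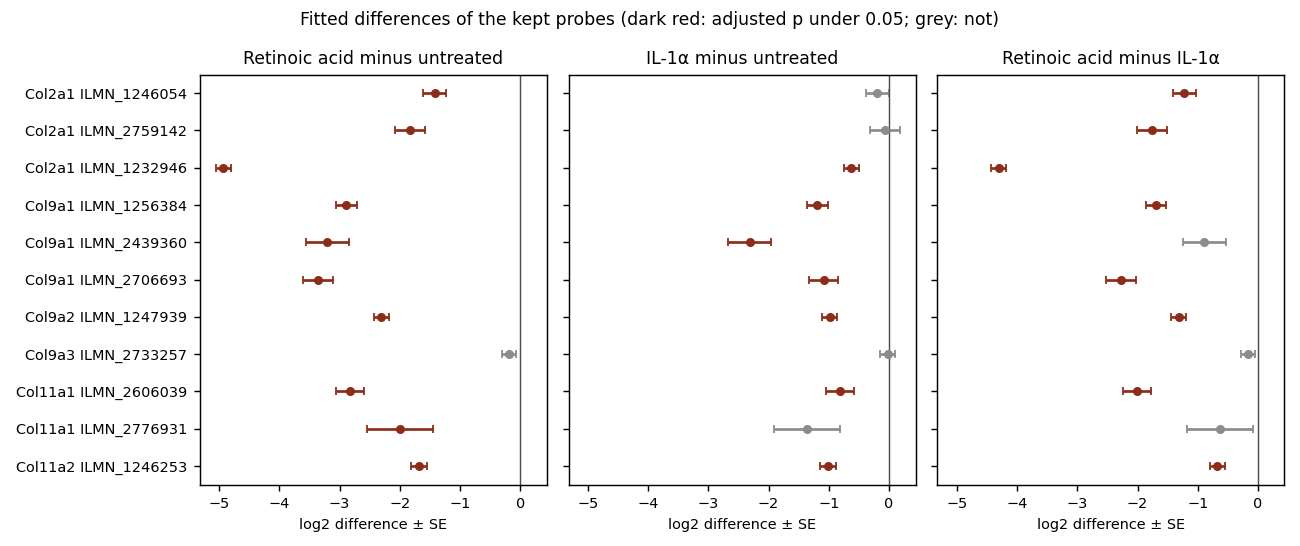
Fitted log2 differences ± SE of the 11 kept probes in the 3 comparisons, with 4 arrays in each group. Dark red marks an adjusted p under 0.05. All 33 differences lie below 0, and ILMN_1232946 of Col2a1 shows the largest under retinoic acid, -4.93 against untreated.

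Retinoic acid and IL-1α were also set against each other. Both comparisons with untreated share the same 4 untreated arrays. The group means compared here come from none of them. The untreated arrays still entered the normalization, the filter and the shared spread behind the p-values. On ILMN_2439360 of Col9a1 the adjusted p was 0.0757 by limma, and 0.0194 without untreated replicate 1 of batch 2. Retinoic acid was lower than IL-1α in 5 of 6 genes, against 16.4% of all genes, and in 8 of 11 probes, against 15.8% of kept probes. The median of the member genes was -1.27, beside -0.03 for all genes. On 6 probes, against 9.35% of kept probes, every retinoic acid array lay below every IL-1α array. For Col2a1 the difference was -4.31 ± 0.13 (SE, adjusted p = 1.23e-10 by limma) on ILMN_1232946, -1.22 ± 0.19 (SE, adjusted p = 0.000259 by limma) on ILMN_1246054 and -1.77 ± 0.25 (SE, adjusted p = 0.000114 by limma) on ILMN_2759142. For collagen IX it was -1.69 ± 0.17 (SE) on the Col9a1 probe ILMN_1256384 and -1.32 ± 0.13 (SE) on Col9a2. For collagen XI it was -2.01 ± 0.23 (SE) on the Col11a1 probe ILMN_2606039 and -0.67 ± 0.13 (SE, adjusted p = 0.00154 by limma) on Col11a2, the smallest of those called and one that was lost under median scaling, at an adjusted p of 0.0627, and without normalization, at 0.236. The batch 1 retinoic acid arrays lay close to the limit of detection for Col11a2, as given above. Without a block or batch term, Col2a1 and Col11a2 were the 2 genes called. The order of the group means was thus untreated, IL-1α, retinoic acid from high to low on each of the 11 probes, with untreated and IL-1α not told apart on the bright Col2a1 probes, on Col9a3 and on ILMN_2776931 of Col11a1. IL-1α and retinoic acid were not told apart on Col9a3, on ILMN_2776931 and on ILMN_2439360 of Col9a1.

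Whether the chains moved equally was examined within arrays, by taking the log2 level of Col2a1 from that of each other member. Against ILMN_1246054 none of the 15 comparisons passed after adjustment, and the smallest adjusted p of the exact permutation tests was 0.143. These tests took no account of batch. Their smallest possible unadjusted p was 0.0286, at which a comparison could not pass unless many of the 15 reached it. Not passing therefore does not show that the chains moved equally. Against ILMN_1232946, a choice made after the values were seen, the measured fall of Col2a1 under retinoic acid was larger than those of Col9a1, Col9a2, Col11a1 and Col11a2. Col9a3 was too close to the detection limit to compare. Measured so, Col9a1 stood 2.05 and Col9a2 2.63 higher relative to Col2a1 than in untreated arrays, and Col11a1 and Col11a2 stood 2.10 and 3.25 higher, each at an adjusted exact permutation p of 0.0429. Under retinoic acid, Col11a1 was not detected on 1 array of batch 1. Col11a2 and ILMN_1232946 itself lay close to the detection limit in batch 1. What part the limit has in these values was not tested. The choice of Col2a1 probe thus turned the direction for Col9a1, where the same quantity was -1.47 with ILMN_1246054, for Col9a2 (-0.89), for Col11a1 (-1.41) and for Col11a2 (-0.27), none of which passed.

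The batches were compared within untreated cartilage. Of the 6 genes, Col9a1, Col9a2 and Col11a1 were higher in batch 2, against 25.9% of all genes, and Col2a1 was lower on its brightest probe, against 39.3%. Col11a1 was higher by 2.79 ± 0.23 (SE, adjusted p = 9.01e-08 by limma) on ILMN_2606039. Col9a1 was higher by 1.85 ± 0.15 (SE, adjusted p = 1.11e-07 by limma) on ILMN_1256384, and Col9a2 by 1.08 ± 0.16 (SE, adjusted p = 3.15e-05 by limma). The Col2a1 probes disagreed, with -0.49 ± 0.19 (SE) on ILMN_1246054, 0.01 ± 0.14 (SE) on ILMN_2759142 and 2.19 ± 0.14 (SE) on ILMN_1232946. Col11a2 differed by -0.10 ± 0.17 (SE, adjusted p = 0.629 by limma) and Col9a3 by 0.31 ± 0.16 (SE, adjusted p = 0.104 by limma).

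The fall under retinoic acid was called different in size between the batches for 3 of the 6 genes, against 2.70% of all genes. Each call rests on the brightest kept probe. The fall was smaller in batch 2 for Col2a1 on ILMN_1246054, by 1.07 ± 0.27 (SE, adjusted p = 0.0495 by limma), and for Col9a1 on ILMN_1256384, by 0.87 ± 0.22 (SE, adjusted p = 0.0451 by limma). Both probes were near the top of the scale on some untreated arrays. The other Col9a1 probes did not repeat this, with -0.05 ± 0.80 (SE) on ILMN_2439360 and -1.29 ± 0.26 (SE) on ILMN_2706693. No batch 1 retinoic acid array detected either of them. For Col11a1 on ILMN_2606039 the fitted difference was -1.35 ± 0.32 (SE, adjusted p = 0.0353 by limma) in batch 2 minus batch 1. Of its batch 1 retinoic acid arrays 1 did not detect the probe and the other read 5.48, just above the limit, so detection limits the fall that batch 1 could show, and a larger fall in batch 2 is not shown. Over all kept probes, such a difference was called for 2.86% with retinoic acid against untreated, 4.82% with IL-1α against untreated and 8.76% with retinoic acid against IL-1α, beside 6, 2 and 2 of the 11 member probes. Neither ILMN_2706693 nor ILMN_2776931, which are among the 6, was detected on a batch 1 retinoic acid array. ILMN_1232946 of Col2a1 differed between the batches by -0.06 ± 0.20 (SE), with its batch 1 retinoic acid arrays close to the detection limit. The count of 3 genes was between 0 and 2 when any 1 of the 12 arrays was left out, and it was 0 with no filter on low signal. The falls called under retinoic acid had the same sign in each batch, leaving aside ILMN_2776931, which no batch 1 array detected.

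**Figure D4:**
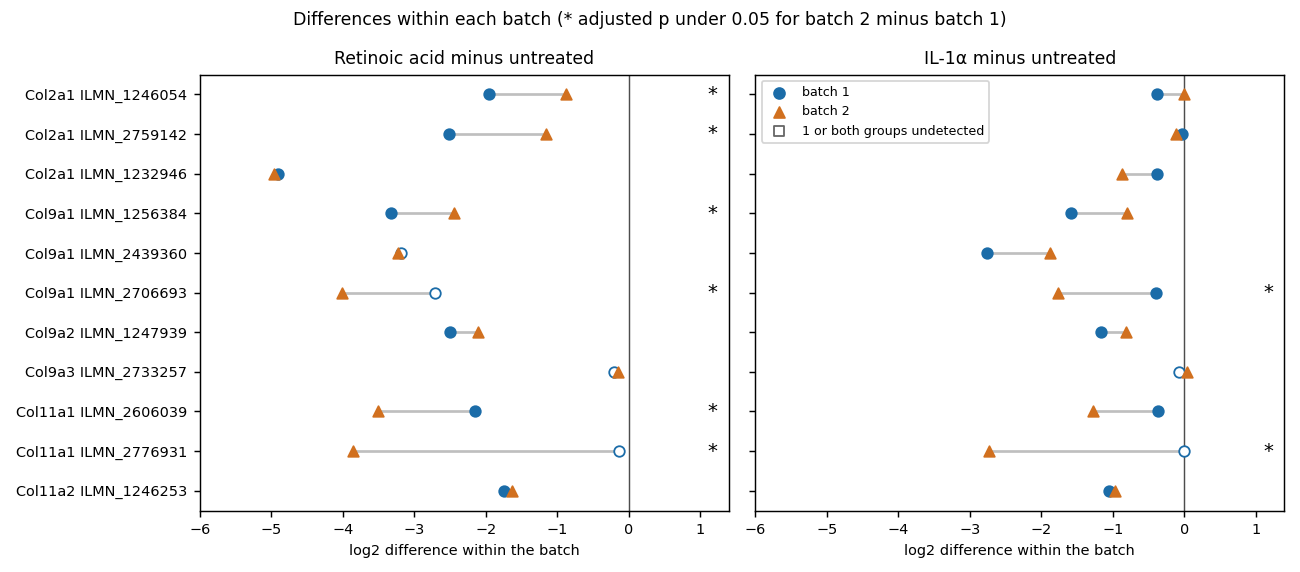
Log2 differences from untreated within batch 1 (circles) and batch 2 (triangles), 2 arrays in each group. Open symbols had 1 or both groups undetected, and an asterisk marks an adjusted p under 0.05 for batch 2 minus batch 1. ILMN_1232946 of Col2a1 gives -4.90 and -4.96 under retinoic acid, while ILMN_2759142 gives -2.51 and -1.16. The batch 1 retinoic acid arrays lay close to the detection limit on ILMN_1232946.

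The start regions of the members that fell together are shown because they hold the letters of known promoter elements in different places. The RefSeq promoter table of GRCm38.p6 gave 5 windows of 300 bases for 4 members, 2 for Col9a1 and 1 each for Col9a2, Col11a1 and Col11a2. The 100 bases just before the annotated gene start are printed 5′ to 3′ for Col9a1, Col9a2 and Col11a1, in lower case, with capitals for matches to any of the motifs named after them.
Col9a1 (chr1:24177489-24177588, plus strand): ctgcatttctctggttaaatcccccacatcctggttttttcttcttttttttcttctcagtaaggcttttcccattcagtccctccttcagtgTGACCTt
Col9a2 (chr4:121039466-121039565, plus strand): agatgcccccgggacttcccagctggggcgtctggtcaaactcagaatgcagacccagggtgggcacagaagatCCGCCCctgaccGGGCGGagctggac
Col11a1 (chr3:114030379-114030478, plus strand): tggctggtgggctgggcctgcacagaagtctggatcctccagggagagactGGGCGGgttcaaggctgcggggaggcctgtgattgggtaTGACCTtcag
The motifs searched on both strands were AACAAT and ACAAAG, the cores that SOX proteins bind, AGGTCA, the half-site of nuclear receptors, TATAAA, the TATA box, and GGGCGG, the GC box. No 2 matches overlapped. The capitals TGACCT in Col9a1 and in Col11a1 are AGGTCA read on the other strand, and 1 of the 2 Col9a1 windows and the Col11a1 window hold it, 2 of the 5, where 16.3% of all 32851 windows do. GGGCGG stood in 3 of 5 windows (Col9a2, Col11a1 and Col11a2), against 35.7% of all windows, and TATAAA in the Col11a2 window, against 13.6%. Neither SOX core was in any of the 5 windows, where 10.7% of windows hold AACAAT and 18.7% ACAAAG. Such matches describe letters in these windows only.

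Of the transcription regulators of chondrocytes that were listed, 8 of 11 genes had a kept probe. Retinoic acid lowered 5 of the 8, and 3 were not called. For reading this and the lists that follow, 18.6% of all genes were called higher with retinoic acid and 15.1% with IL-1α, beside the shares of lower calls given above. Sox9, which binds and drives Col2a1, Col9a1 and Col11a2 enhancers, differed by -1.91 ± 0.12 (SE, adjusted p = 5.38e-08 by limma). Sox5, its partner, differed by -0.87 and Sox6, the other partner, by -0.22 (not called). Foxa3 differed by -2.52 and Foxa2 by -0.77, both forkhead factors of maturing chondrocytes, and Trps1, a GATA-type repressor, by -1.35. Foxa2 was close to the limit of detection, and was detected on 3 untreated, 2 IL-1α and 2 retinoic acid arrays. Zbtb20 at -0.09 and Nkx3-2 at -0.28 were not called. With IL-1α, Sox9 (-0.44) and Foxa3 (-0.40) were called lower, and neither was under median scaling or without normalization. The other 6 were not called with IL-1α, at -0.28 for Sox5, -0.30 for Sox6, -0.26 for Zbtb20, -0.35 for Trps1, 0.05 for Nkx3-2 and -0.09 for Foxa2. Sox9 was near the top of the scale on 1 array.

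The enzymes and chaperones that modify and fold collagen chains ran the same way as the chains. Of 15 kept genes of 16, 14 were lower with retinoic acid and 10 with IL-1α, and their medians were -0.74 and -0.40. The largest falls with retinoic acid were Glt25d2, a collagen galactosyltransferase (-3.34 ± 0.11, SE), Leprel1, a prolyl 3-hydroxylase (-2.71 ± 0.20, SE), and Plod2, a lysyl hydroxylase (-1.61 ± 0.16, SE). With IL-1α they were Glt25d2 (-1.33), Leprel2, another prolyl 3-hydroxylase (-0.68), and Leprel1 (-0.65). Serpinh1, the collagen chaperone HSP47, was called with -0.41 and -0.39 although it ranked within the first 100 on 10 of 12 arrays. The IL-1α count fell to 2 under median scaling and to 1 without normalization, and the retinoic acid count to 10 and 5. No called gene of these lists changed sign under either setting.

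Genes for procollagen export, trimming and crosslinking moved both ways. Of 14 kept genes of 17, retinoic acid raised 3 and lowered 4, and IL-1α raised 2 and lowered 6. Among all genes, retinoic acid raised 18.6% and lowered 18.1%, and IL-1α raised 15.1% and lowered 2150 of 14317. Both counts with retinoic acid and the rises with IL-1α are near those shares. Pcolce2, an enhancer of the C-proteinase, differed by -4.81 ± 0.12 (SE) with retinoic acid and -2.25 ± 0.12 (SE) with IL-1α. Pcolce, its relative, differed by 0.28 (not called) and -2.07. Loxl4, a lysyl oxidase, differed by -1.10 and -1.62. Loxl2, its relative and among the 6 lowered with IL-1α, was detected on 2 untreated arrays and no IL-1α array. No size of fall can be given for it. Adamts3, a procollagen II N-proteinase, differed by -1.01 with retinoic acid and was not detected on any IL-1α array, a fall of at least 2.66-fold. The rises with retinoic acid were Loxl1 (1.67 ± 0.13, SE), Bmp1, the C-proteinase itself (0.79), and Lox (0.45), and those with IL-1α were Mia3, which loads collagen for export (0.62), and Lox (0.61).

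Transcripts for proteins of the fibril surface fell with retinoic acid in 8 of 9 kept genes of 10, with a median of -1.53, and with IL-1α in 5 of 9, with a median of -0.52. Matn1, which bridges fibrils and aggrecan, differed by -5.00 ± 0.14 (SE) and -1.81 ± 0.14 (SE). Fmod differed by -2.88 and Comp, a fibril-binding pentamer, by -2.25 with retinoic acid. Detection limits the size for Fmod, which was detected on 4 untreated and 2 retinoic acid arrays. With IL-1α, Matn4 (-0.99) and Lum (-0.90) followed Matn1. Among cleavage enzymes and receptors of collagen II, 8 kept genes of 11, retinoic acid raised 4 and lowered 2, and IL-1α raised 2 and lowered 1. In so short a list, the 2 lowered with retinoic acid and both IL-1α counts are near the shares of all genes given above. Mmp14, a membrane collagenase, differed by 2.07 ± 0.17 (SE) with retinoic acid and 0.40 (not called) with IL-1α. Itga11, a collagen integrin chain, rose by 1.05, and Ctsk, a cathepsin that cuts triple helices, by 0.58 with retinoic acid and 0.55 with IL-1α. Ddr1, a collagen receptor kinase, differed by -1.10 with retinoic acid and 0.57 with IL-1α, and Itga10, the cartilage collagen integrin chain, by -0.36 and -0.77. Mmp13, the main collagenase of collagen II, was not called in either comparison and ranked within the first 100 on all 12 arrays. The IL-1α calls of these cleavage and receptor genes were 1 higher and 1 lower under median scaling and were lost without normalization.

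**Figure D5:**
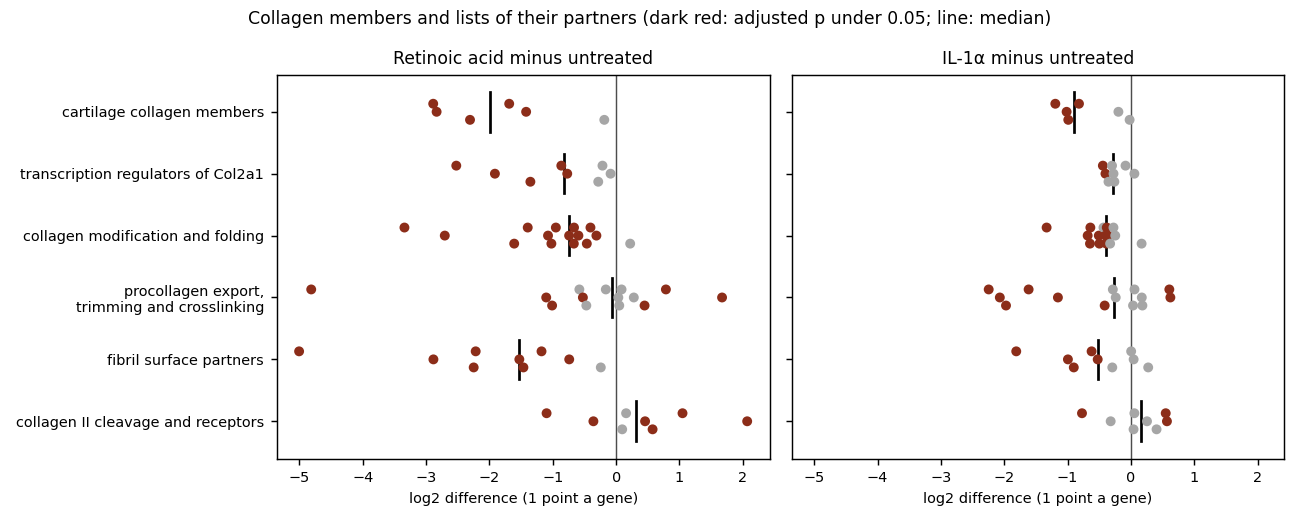
Log2 differences from untreated of the 6 collagen genes and of 5 lists of their partners, 1 point a gene (brightest kept probe) from 4 arrays a group. Dark red marks an adjusted p under 0.05 and the black line the median. The collagen genes have medians of -2.0 and -0.90, and the export, trimming and crosslinking genes spread from -4.81 to 1.67 with retinoic acid.

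The members were also compared with each other over the 12 arrays, after each batch's mean was taken off. These correlations describe likeness over arrays that share 3 treatments, with no test. Pearson's r was 0.986 between Col9a1 and Col9a2, 0.961 between Col9a2 and Col11a2 and 0.893 between Col11a1 and Col11a2. Col2a1, on its brightest probe, correlated with the other members at 0.772 to 0.902, Col9a3 aside. Col9a3 correlated with the others at 0.483 to 0.590. Among all genes, the most like Col9a1 were Arhgef1, Plekha4 and LOC100047619, led by 0.9955, and the most like Col9a2 were Lum (0.9941), Col16a1 and Fxyd3. Fmod (0.9822), Epb4.1l4a and Smoc2 were most like Col11a1, and Dctd (0.9899), Cryl1 and Srpx were most like Col11a2. For Col2a1 they were 4932408C11Rik (0.9827), Elp3 and 4933439F18Rik, and for Col9a3 they were Fbxl5 (0.8597), Cdk5rap3 and Myo9b.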

How the data were processed

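RNA of 12 explant samples was hybridised to Illumina mouse bead arrays. The authors deposited probe intensities with no background subtraction or normalization, per the file headers, and a detection score between 0 and 1 (a fraction) whose value rises with intensity, so that its complement served as detection p. The submitters' processing notes name limma, without a version. The software that read the beads is not given in the sources used here.

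Values were computed in limma 3.58.1 (R 4.3.3). The neqc function corrected background from the detection p, applied quantile normalization and added an offset of 16 before log2. A probe needed detection at p under 0.05 on 4 or more of the 12 arrays, which left 18200 of 46632 probes and 14317 genes. The linear model (lmFit and eBayes) held treatment and a factor for batch and biological replicate, after the study's methods. A model of treatment by batch gave within-batch values and tested differences between batches. A probe undetected on all arrays of 1 group has a bound, the brighter group's mean against, on each dim array, its own signal or the array's lowest detected one, whichever is higher. A signal was near the top when it was among the 100 most intense of its array.

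Every member probe is named. Of partner lists, all kept regulators and the 3 largest rises and falls called against untreated are named. Serpinh1, Mmp13 and Loxl2 were added after their values were seen. Member genes and lists were chosen with earlier results of these data known. The functions were tested on simulated data. Array number limits precision. Promoter sequences come from RefSeq, GRCm38.p6. Alternatives covered background, offset, normalization, filter, covariates, moderation, probe choice, each batch alone and leaving out each array.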

Additional observations from a re-analysis of the deposited data

Results flagged for a closer look

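The effect of a treatment differed between the batches, by the test of treatment by batch (limma, adjusted over all kept probes), on 10 occasions among the 11 kept probes and 3 comparisons. Each value is the log2 difference in batch 2 minus that in batch 1. For retinoic acid against untreated it was 1.07 for Col2a1 on ILMN_1246054 and 1.35 on ILMN_2759142, both of which lay near the top of the scale in untreated arrays. It was 0.87 for Col9a1 on ILMN_1256384, which lay near the top in untreated arrays of batch 2, and -1.29 on ILMN_2706693, which no batch 1 retinoic acid array detected. It was -1.35 for Col11a1 on ILMN_2606039, which 1 of the 2 batch 1 retinoic acid arrays did not detect, and -3.71 on ILMN_2776931. For IL-1α against untreated it was -1.37 for Col9a1 on ILMN_2706693 and -2.71 for Col11a1 on ILMN_2776931. For retinoic acid against IL-1α it was 1.43 for Col2a1 on ILMN_2759142 and -0.999 for Col11a1 on ILMN_2776931. No batch 1 array detected ILMN_2776931, so its 3 values compare a measured batch with an unmeasured one. In the 33 groups of 4 arrays, no array stood far from the others by Dixon's criterion, which sets a gap against the whole range of a group. Each group held 2 batches, and the untreated batches lay up to 4.28 apart on 1 probe, so the criterion could hardly single out 1 array. What lies behind the differences between batches was not tested, and line and batch cannot be told apart.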

How the results depend on the processing

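With batch as the only covariate, no replicate block, the counts of lower member genes stayed at 5, 4 and 5 (retinoic acid and IL-1α against untreated, and retinoic acid against IL-1α). Same-numbered samples deviated together only in part, with correlations of -0.108 to 0.391, so the numbers were not shown to pair the samples. With neither block nor batch term the count was 4 for retinoic acid against untreated, where Col9a1 was lost at an adjusted p of 0.057, 1 for IL-1α against untreated and 2 for retinoic acid against IL-1α. The 5 genes lower with retinoic acid stayed 5 when any array was left out, and the IL-1α count was 3 or 4.

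The count of genes whose effect differed between batches was less firm. For retinoic acid against untreated (3 genes) it was 0 with no filter, 0 with detection on all 12 arrays, and 0 to 2 with 1 array left out. For IL-1α against untreated, where limma called 0 genes and 2 had an unadjusted p under 0.05, it was 2 without background correction, 1 under median scaling, 1 with trend and robust moderation, and 0 to 1 with 1 array left out. For retinoic acid against IL-1α, with 0 called and 1 at an unadjusted p under 0.05, median scaling gave 1.

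Signs turned only for differences that were not called. Without normalization between arrays, Col9a3 was at 0.0019 with retinoic acid and 0.016 with IL-1α, and ILMN_2759142 of Col2a1 at 0.065 with IL-1α. In batch 2 alone Col9a3 was at 0.033 with IL-1α. With 1 array left out, ILMN_2759142 ranged from -0.20 to 0.0812 and Col9a3 from -0.11 to 0.0445 with IL-1α. The within-array difference of Col11a2 from Col2a1 with retinoic acid was 0.23 without background correction. The cause was not tested.

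Median scaling moved the median of all probes for retinoic acid against untreated to 0.14, and the share of lower calls from 48.4% to 34.4%. No normalization moved them to 0.26 and 24.2%. Against IL-1α that share went from 51.0% to 34.4% and 29.1%, the latter with a median of 0.12, and the IL-1α median against untreated went to 0.11.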
